A study of Mus musculus with 12 samples.

Results

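The 35 genes described here encode the enzymes, carriers and regulators of fatty acid oxidation in mitochondria and peroxisomes, chosen by symbol from a list written for this purpose. That list was written with earlier results of these data known. All 35 were found among the 55487 genes counted in striatal tissue, and all 35 passed the filter on low counts with the 21309 genes tested. The RNA came from 12 mice, 3 in each of 4 groups. WT mice were C57BL/6J controls. HD mice were heterozygous for the zQ175 neo-deleted knock-in allele, which places an expanded CAG repeat in the mouse gene Htt and serves as a model of Huntington's disease. cGAS-KO mice lack cGAS, the sensor of cytosolic DNA that acts upstream of STING. The cGAS-KO;HD group, which the series names Q175DN-cGAS-KO, carried both alleles and is called the double mutants here. The series asked whether removing cGAS alters the course of the disease model. Age, sex, litter and batch of the animals, and the exon that the cGAS allele removes, were not stated in the labels. Values are normalised read counts scaled to library size (CPM), printed in the order of replicates 1, 2 and 3, and a gene is called where its adjusted p is under 0.05.

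Beta-oxidation shortens a fatty acid by repeated removal of acetyl-CoA. Acyl-CoA synthetases activate the acid, the carnitine shuttle carries it into the mitochondrion, and a dehydrogenase, a hydratase, another dehydrogenase and a thiolase complete each cycle, with electrons passed to the respiratory chain through the electron transfer flavoprotein. Peroxisomes run a parallel cycle for very long-chain and branched acids and hand the shortened products over as carnitine esters. In the brain these enzymes are known mainly from astrocytes, while neurons rely largely on glucose and lactate.

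Libraries held 59195327 to 72765623 counts. Htt, which carries the knock-in allele, was at 173 ± 5.27 CPM in WT, 139 ± 7.48 in HD mice, 170.0 ± 13.2 in cGAS-KO and 135 ± 8.19 in double mutants (SD, n = 3), and the ranges with and without the allele did not overlap. Cgas was rare in every group, at 1.41 ± 0.129, 1.15 ± 0.0963, 0.777 ± 0.177 and 1.03 ± 0.203 CPM in the same order, which is a weak check of the cGAS labels. Ppp1r1b, the DARPP-32 gene of medium spiny neurons and a defining gene of the striatum, stood at 873 ± 154 CPM in WT, 356 ± 123 in HD mice, 898 ± 147 in cGAS-KO and 385 ± 35.2 in double mutants. In tissue, fewer cells of a type and less RNA per cell cannot be told apart. WT replicate 1 and cGAS-KO replicate 3 stood apart from their groups in these genes. WT replicate 1 was the highest WT library for 26 of 35 members and for 18 of the 20 mitochondrial members. cGAS-KO replicate 3 was the lowest of its group for 23 of 35 members and for 15 of the 20 mitochondrial members, and 11.5% of its counts fell on mitochondrially encoded genes, against 5.30% to 9.03% in the other 11 libraries.

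Hadha and Hadhb, which encode both subunits of the mitochondrial trifunctional protein, lie head to head on chromosome 5, Hadha on the minus and Hadhb on the plus strand, with 85 bases between their gene models (GRCm38). Their RefSeq promoter windows (GRCm38.p6, 250 bases before to 50 after each start) share 228 bases, so a single stretch of DNA serves as the promoter window of both. The Hadhb window, chr5:30155003-30155302 on the plus strand, is shown because Hadha had the smallest p of all members with the knock-in allele; capitals mark the part that the Hadha window also covers.
Hadhb: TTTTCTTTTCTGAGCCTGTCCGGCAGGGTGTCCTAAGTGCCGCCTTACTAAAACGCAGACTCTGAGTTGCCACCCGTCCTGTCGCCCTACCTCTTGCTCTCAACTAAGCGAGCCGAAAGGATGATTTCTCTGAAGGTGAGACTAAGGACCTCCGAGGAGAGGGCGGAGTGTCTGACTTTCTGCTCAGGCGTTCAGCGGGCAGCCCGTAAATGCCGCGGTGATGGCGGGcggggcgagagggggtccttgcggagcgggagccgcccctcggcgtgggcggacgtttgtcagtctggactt
Acadm, the medium-chain dehydrogenase, is shown as a called member whose window, chr3:153944594-153944893 on the minus strand, holds the nuclear receptor element AGGTCA, here on the opposite strand in capitals.
Acadm: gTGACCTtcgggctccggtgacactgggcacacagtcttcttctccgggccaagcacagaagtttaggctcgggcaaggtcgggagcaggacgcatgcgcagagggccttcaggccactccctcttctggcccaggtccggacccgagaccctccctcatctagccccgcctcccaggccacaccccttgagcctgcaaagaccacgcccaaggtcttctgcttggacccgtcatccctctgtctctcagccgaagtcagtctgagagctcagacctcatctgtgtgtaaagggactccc
Acsl6, an acyl-CoA synthetase prominent in brain, is shown because a window of this gene, chr11:54303574-54303873 on the plus strand, was the member window with an estrogen-related receptor element, TCAAGGTCA; capitals mark that element and a separate AGGTCA, both on the opposite strand.
Acsl6: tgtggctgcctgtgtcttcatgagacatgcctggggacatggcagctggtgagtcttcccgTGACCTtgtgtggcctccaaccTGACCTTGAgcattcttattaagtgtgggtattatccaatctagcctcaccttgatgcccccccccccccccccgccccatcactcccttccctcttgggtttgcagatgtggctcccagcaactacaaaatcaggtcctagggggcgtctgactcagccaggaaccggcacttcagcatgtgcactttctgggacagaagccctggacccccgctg

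The RefSeq table held 31 of the 35 members, in 34 windows of 300 bases, among 32851 windows in all. The search covered 4 patterns on both strands, and the longer nuclear receptor patterns contain the short one. AGGTCA repeated with 1 base between, the form bound by PPAR alpha with its partner, was in 0 of 34 member windows and in 0.0396% of all windows. TCAAGGTCA was in 1 of 34 (2.94%) and in 0.423% of all windows. The E-box CACGTG was in 0 of 34 and in 7.15% of all. AGGTCA alone, added after the others had been searched, was in a window each of Acsl6, Cpt1a, Cpt1c, Acadvl, Acadm and Echs1, 6 of 34 windows (17.6%) against 16.3% of all. The other windows of Acsl6, at chr11:54303954-54304253 and chr11:54314653-54314952, held none of the 4 patterns. These are matches of letters in short windows and say nothing about binding.

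Per length of exon, Acsl3 had the highest level of the 35 genes, at 56.4 CPM per kilobase, followed by Acsl6 at 24.5, Acadl at 21.1 and Hsd17b4 at 17.0. The lowest levels were those of Ppara at 0.576, Etfb at 0.956 and Ehhadh at 2.23 CPM per kilobase. The order depends on the exon models, since rarely used exons lower the value. Counts of Etfb rest on few bases of its own, because 58.2% of its exon sequence also belongs to Gm45233 or Mir7051 on the same strand, and 42.9% of the exon sequence of Acadvl is covered by Dvl2 on the opposite strand.

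With the knock-in allele, averaged over mice with and without cGAS, 7 of the 35 genes rose and 0 fell: Hadha, Hadh, Acadm, Decr1 and Etfdh of the mitochondrial pathway and Eci2 and Hsd17b4 of the peroxisomal pathway. The rises were small, from 1.15-fold for Acadm to 1.25-fold for Hadha. The 7 are 20% of the members, and 5.59% of all tested genes were called higher in this comparison (13.2% in either direction). With a filter of 1 CPM in 3 libraries, which leaves out rarer genes, 6.82% of genes were called higher and 17.7% in either direction. The median log2 change of the 35 was 0.161, against 0.011 for all genes tested, and 26 of 35 changes were positive, against 52.1% of all genes. In 3 members, Hadha, Eci2 and Decr1 (8.57%), all 6 libraries with the allele lay above all 6 without it, against 3.38% of all genes. Medium spiny neuron markers fell in the same comparison, 12 of 12 called, with a median log2 change of -1.34, and the part of that loss in the rises was not tested.

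**Figure D1:**
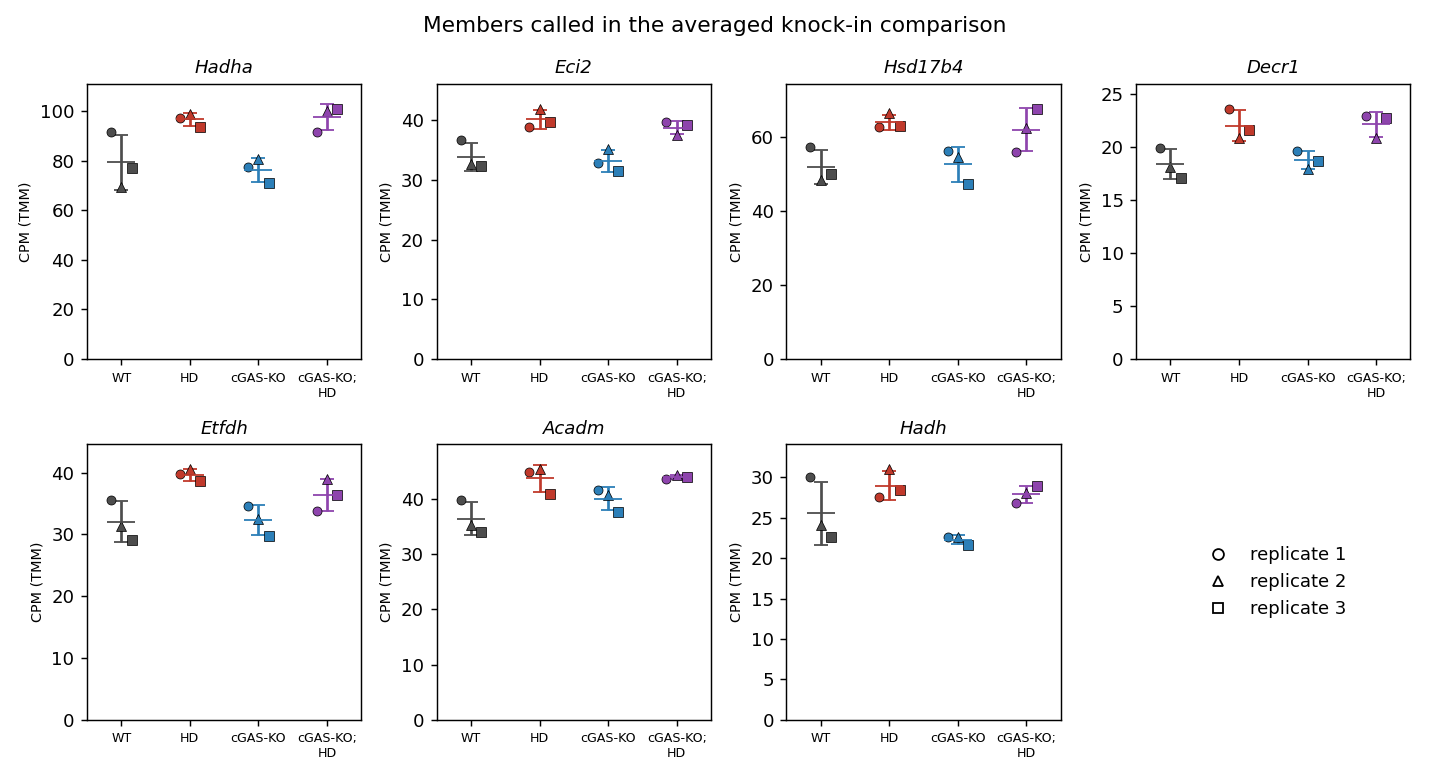
CPM of the 7 members called in the averaged knock-in comparison (y axis, from 0) in the 4 groups (x axis). Points are libraries with a shape for each replicate, and bars are the mean ± SD of 3 libraries; the 6 HD and double-mutant libraries lie above the 6 others for Hadha, Eci2 and Decr1, and WT replicate 1 is the highest WT point in all 7 panels.

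The trifunctional protein carries out the last steps of the mitochondrial cycle for long chains. Hadha, its alpha subunit, was at 91.5, 69.4 and 77.0 CPM in WT, at 97.3, 98.9 and 93.8 in HD mice, at 77.5, 80.6 and 70.9 in cGAS-KO and at 91.6, 100 and 101 in double mutants. Each of the 6 libraries with the knock-in allele lay above each of the 6 without it, WT replicate 1 by the narrowest margin. The averaged log2 change was 0.32 ± 0.07 (SE, edgeR adjusted p = 0.00699), made of 0.29 ± 0.09 in HD against WT (adjusted p = 0.112) and 0.35 ± 0.09 in double mutants against cGAS-KO (adjusted p = 0.0542).

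Hadhb, the beta subunit with the thiolase, had group means of 59.4 ± 10.7, 75.0 ± 2.78, 58.6 ± 7.79 and 66.3 ± 6.54 CPM in WT, HD, cGAS-KO and double mutants, and its averaged change of 0.26 ± 0.09 was not called (adjusted p = 0.0771). Over the 12 libraries the log2 levels of Hadha and Hadhb had a Pearson r of 0.86, a description of libraries that share depth and group. Hadh, the dehydrogenase for shorter hydroxyacyl chains, was at 30.0, 24.1 and 22.6 CPM in WT, 27.6, 31.0 and 28.4 in HD mice, 22.6, 22.6 and 21.7 in cGAS-KO and 26.8, 28.1 and 28.9 in double mutants. WT replicate 1 lay inside the range of the libraries with the allele, and the other 5 libraries without it lay below all 6 with it. The averaged change of Hadh was 0.25 ± 0.07 (adjusted p = 0.0315).

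Echs1, the short-chain hydratase, was at 41.9, 36.9 and 37.8 CPM in WT, 42.1, 48.0 and 48.9 in HD mice, 44.0, 43.2 and 26.5 in cGAS-KO and 31.6, 37.3 and 45.0 in double mutants. Its HD libraries lay above WT while its double mutants overlapped cGAS-KO, and the averaged change was 0.13 ± 0.12 (adjusted p = 0.557). Acaa2, the mitochondrial thiolase for medium chains and the member of this step with the highest level per length, was at 26.3, 16.1 and 18.6 CPM in WT, 21.2, 25.3 and 17.7 in HD mice, 23.8, 22.1 and 16.5 in cGAS-KO and 18.7, 22.9 and 20.5 in double mutants. All 4 groups of Acaa2 overlapped, and its averaged change was 0.03 ± 0.13.

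Acyl-CoA dehydrogenases open the cycle and are divided by chain length. Acadm, for medium chains, was at 39.9, 35.4 and 34.1 CPM in WT, 45.0, 45.4 and 41.0 in HD mice, 41.7, 40.8 and 37.7 in cGAS-KO and 43.7, 44.4 and 44.1 in double mutants. HD lay wholly above WT and the double mutants wholly above cGAS-KO, with HD replicate 3 below cGAS-KO replicate 1. The averaged change was 0.20 ± 0.05 (adjusted p = 0.03), with 0.26 ± 0.08 in HD against WT (adjusted p = 0.0813) and 0.14 ± 0.08 in double mutants against cGAS-KO (adjusted p = 0.401).

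Acadl, for long chains, had the highest level per length of this class and was at 46.8, 35.8 and 34.8 CPM in WT, 48.3, 48.5 and 44.1 in HD mice, 37.4, 36.0 and 41.6 in cGAS-KO and 44.9, 44.7 and 43.8 in double mutants. Apart from WT replicate 1, every library without the allele lay below every library with it, and the averaged change of 0.24 ± 0.07 missed the threshold at an adjusted p of 0.0505. Acadvl, for very long chains, had means of 36.6 ± 4.70, 45.9 ± 3.18, 32.9 ± 9.24 and 37.8 ± 6.85 CPM in WT, HD, cGAS-KO and double mutants. Acads, for short chains, had means of 6.23 ± 1.27, 7.87 ± 0.81, 5.54 ± 2.36 and 6.62 ± 1.03 CPM in the same order. Neither was called in the averaged comparison, with changes of 0.26 ± 0.14 (adjusted p = 0.234) and 0.30 ± 0.20 (adjusted p = 0.369), and in both cGAS-KO replicate 3 was the lowest of the 12 libraries, at 22.3 CPM for Acadvl and 2.83 for Acads.

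Unsaturated acids need auxiliary enzymes to enter the cycle. Decr1, the mitochondrial dienoyl-CoA reductase, was at 19.9, 18.1 and 17.1 CPM in WT, 23.6, 20.8 and 21.6 in HD mice, 19.6, 17.9 and 18.7 in cGAS-KO and 22.9, 20.8 and 22.7 in double mutants. Its 6 libraries with the allele lay above the 6 without, and it rose by 0.25 ± 0.06 on the log2 scale (adjusted p = 0.018). Eci1, the mitochondrial enoyl-CoA isomerase, was at 18.1, 14.3 and 13.7 CPM in WT, 17.1, 20 and 18.4 in HD mice, 14.7, 18.7 and 10.3 in cGAS-KO and 15.2, 16.9 and 18.3 in double mutants. The groups of Eci1 overlapped and its change of 0.24 ± 0.13, as large as that of Decr1 but with a wider error, was not called (adjusted p = 0.254).

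Acot2, a mitochondrial thioesterase, had means of 6.26 ± 0.744, 7.15 ± 0.77, 6.09 ± 0.645 and 7.43 ± 0.448 CPM in WT, HD, cGAS-KO and double mutants (averaged change 0.24 ± 0.10, adjusted p = 0.123); its sequence is close to that of Acot1, so reads may be shared. Mlycd, malonyl-CoA decarboxylase, which removes the inhibitor of carnitine entry, had means of 17.7 ± 1.02, 17.9 ± 1.66, 15.5 ± 5.24 and 15.7 ± 2.33 CPM in the same order (0.02 ± 0.15, adjusted p = 0.962).

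Electrons of the cycle pass from the flavoprotein to ubiquinone. Etfdh, the ubiquinone oxidoreductase, was at 35.6, 31.4 and 29.1 CPM in WT, 39.7, 40.5 and 38.6 in HD mice, 34.6, 32.4 and 29.8 in cGAS-KO and 33.8, 38.9 and 36.4 in double mutants. HD lay above WT, and double-mutant replicate 1 lay below cGAS-KO replicate 1. Etfdh rose by 0.24 ± 0.06 on the log2 scale in the averaged comparison (adjusted p = 0.0264).

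Etfa, the alpha subunit of the flavoprotein, was at 30.8, 23.1 and 24.0 CPM in WT, 29.6, 35 and 32.5 in HD mice, 29.5, 30.0 and 19.3 in cGAS-KO and 24.8, 26.2 and 29.9 in double mutants. Its values overlapped in both pairs of groups (averaged change 0.18 ± 0.11, adjusted p = 0.348). Etfb, the beta subunit, had means of 1.12 ± 0.036, 1.21 ± 0.149, 0.982 ± 0.0606 and 1.14 ± 0.216 CPM in WT, HD, cGAS-KO and double mutants and was not called (0.16 ± 0.14, adjusted p = 0.525).

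The peroxisomal pathway gave the other called genes. Eci2, an enoyl-CoA isomerase placed here with the peroxisome though a mitochondrial form is known, was at 36.6, 32.6 and 32.3 CPM in WT, 38.8, 41.9 and 39.7 in HD mice, 32.8, 35.1 and 31.4 in cGAS-KO and 39.6, 37.5 and 39.1 in double mutants. The 6 libraries with the allele lay above the 6 without it, and Eci2 rose by 0.24 ± 0.05 on the log2 scale (adjusted p = 0.0109). Its change was 0.25 ± 0.07 in HD against WT and 0.23 ± 0.08 in double mutants against cGAS-KO, neither called alone (adjusted p = 0.089 and 0.123).

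Hsd17b4, the bifunctional hydratase and dehydrogenase of the peroxisomal cycle and the member of this class with the highest level per length, was at 57.3, 48.5 and 50.1 CPM in WT, 62.8, 66.5 and 63.1 in HD mice, 56.3, 54.6 and 47.3 in cGAS-KO and 56.1, 62.5 and 67.8 in double mutants. HD lay above WT, and double-mutant replicate 1 fell inside the cGAS-KO range. It rose by 0.27 ± 0.07 on the log2 scale in the averaged comparison (adjusted p = 0.0166).

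Acox3, an oxidase for branched chains, was at 36.7, 34.0 and 34.7 CPM in WT, 38.3, 38.1 and 40.4 in HD mice, 32.6, 35.5 and 30.3 in cGAS-KO and 35.2, 37.9 and 37.0 in double mutants. HD lay above WT, the double mutants overlapped cGAS-KO by a single library, and the averaged change of 0.15 ± 0.05 was not called (adjusted p = 0.0737). Acaa1a, the peroxisomal thiolase, was at 49.0, 37.4 and 41.5 CPM in WT, 42.8, 47.3 and 50.5 in HD mice, 45.9, 42.8 and 28.2 in cGAS-KO and 30.6, 36.1 and 44.0 in double mutants, with overlap throughout (0.03 ± 0.13, adjusted p = 0.915). Its near copy Acaa1b may share reads with it.

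The remaining 3 peroxisomal members were nearly level over the 4 groups. Decr2, the peroxisomal dienoyl-CoA reductase, ranged from 23.8 to 26.7 CPM over the 12 libraries, Ehhadh, the other bifunctional enzyme, from 6.16 to 7.24, and Crot, which makes carnitine esters of the shortened chains for export, from 31.6 to 37.1. Their averaged changes were -0.01 ± 0.05, 0.05 ± 0.08 and 0.07 ± 0.06, and none was called.

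At the entry of the pathway, of the 5 acyl-CoA synthetases, 0 were called, all 5 averaged changes were negative (-0.10 to -0.01), and so were all 5 in double mutants against cGAS-KO (-0.18 to -0.04). Acsl3, which is linked to lipid droplets, was at 250.0, 243 and 249 CPM in WT, 246, 234 and 248 in HD mice, 262, 264 and 260.0 in cGAS-KO and 242, 217 and 237 in double mutants. The double mutants lay wholly below cGAS-KO, a change of -0.18 ± 0.06 (unadjusted p = 0.0177, edgeR adjusted p = 0.167), and HD overlapped WT (-0.03 ± 0.06). Acsl6 was at 258, 238 and 239 CPM in WT, 246, 254 and 261 in HD mice, 249, 257 and 245 in cGAS-KO and 209, 217 and 241 in double mutants. Its double mutants were the lowest group, below cGAS-KO by -0.17 ± 0.07 (adjusted p = 0.226). Acsl1, Acsl4, which prefers arachidonate, and Acsl5 had means over 12 libraries of 64.5, 82.5 and 35.4 CPM and averaged changes of -0.01 ± 0.06, -0.04 ± 0.09 and -0.10 ± 0.09.

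The carnitine shuttle had 0 called members, and 3 of its 4 averaged changes were positive. Cpt1a, the carnitine palmitoyltransferase at the regulated entry step, was at 41.1, 27.4 and 27.8 CPM in WT, 34.0, 37.7 and 36.1 in HD mice, 30.0, 27.5 and 26.5 in cGAS-KO and 31.8, 35.9 and 32.9 in double mutants. WT replicate 1 was the highest of the 12 libraries, and the other 5 libraries without the allele lay below all 6 with it; the averaged change was 0.21 ± 0.09 (adjusted p = 0.165). Cpt2, the inner-membrane transferase, had means of 9.86 ± 3.40, 11.7 ± 0.755, 7.98 ± 1.90 and 11.7 ± 1.15 CPM in WT, HD, cGAS-KO and double mutants and the largest averaged change of the 35, 0.40 ± 0.15, not called (adjusted p = 0.106). Slc25a20, the carnitine-acylcarnitine carrier, had means of 11.5 ± 0.649, 12.4 ± 0.332, 10.5 ± 0.725 and 12.2 ± 0.569 CPM (0.16 ± 0.07, adjusted p = 0.13). Crat, the short-chain acetyltransferase and the member of the shuttle with the highest level per length, went the other way: it was at 59.7, 56.8 and 57.9 CPM in WT, 53.8, 51.7 and 45.7 in HD mice, 52.0, 53.3 and 66.5 in cGAS-KO and 58.0, 57.0 and 52.7 in double mutants. HD lay wholly below WT and the double mutants within the cGAS-KO range (averaged change -0.12 ± 0.07, adjusted p = 0.281).

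Cpt1c, a neuronal homologue of the entry enzyme found at the endoplasmic reticulum, was at 91.8, 91.1 and 96.4 CPM in WT, 90.8, 82.8 and 84.7 in HD mice, 87.9, 83.4 and 92.3 in cGAS-KO and 92.4, 91.5 and 89.5 in double mutants. HD lay below WT by -0.11 ± 0.06 without a call, and its averaged change was -0.03 ± 0.04. Of the regulators, the nuclear receptor gene Ppara had means of 2.32 ± 0.37, 1.94 ± 0.304, 2.44 ± 0.651 and 2.14 ± 0.0854 CPM in WT, HD, cGAS-KO and double mutants (-0.22 ± 0.15, adjusted p = 0.374). The coactivator gene Ppargc1a was at 65.6, 65.3 and 58.3 CPM in WT, 68.4, 68.3 and 65.8 in HD mice, 58.0, 63.2 and 82.7 in cGAS-KO and 77.0, 67.1 and 60.4 in double mutants. HD lay just above WT, cGAS-KO and double mutants overlapped, and its averaged change was 0.05 ± 0.09 (adjusted p = 0.757).

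**Figure D2:**
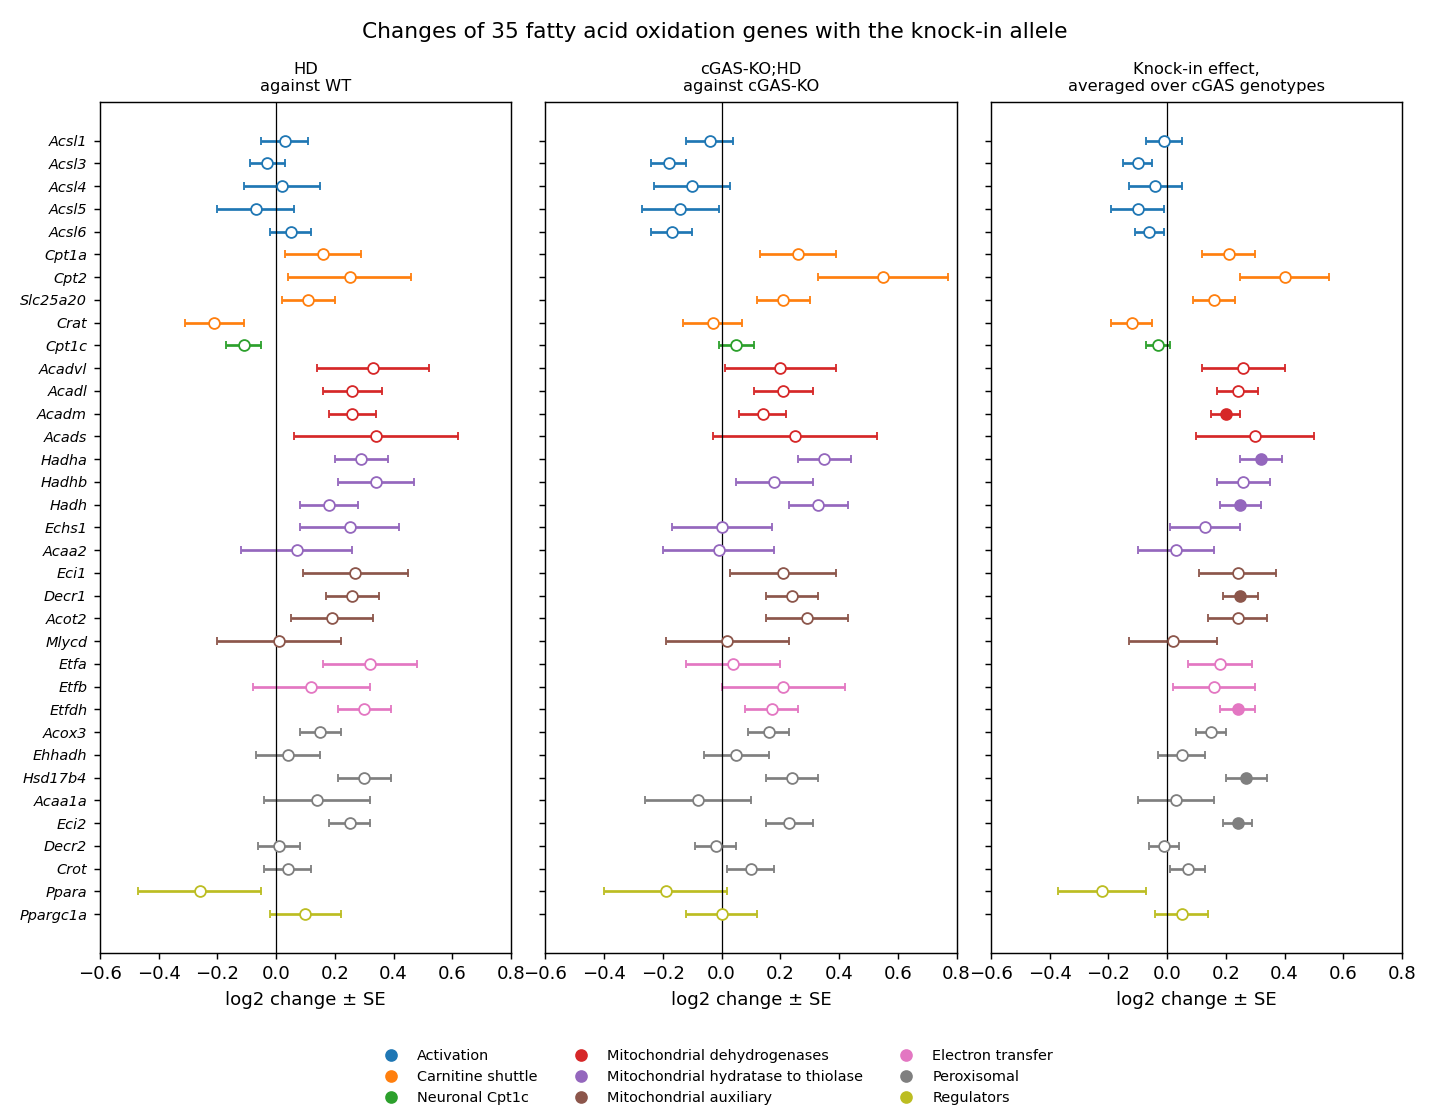
Log2 change ± SE (x axis) of the 35 members (rows, coloured by role) in HD against WT, in double mutants against cGAS-KO and averaged over both. Filled points are called; the 7 filled points are all in the averaged panel, where changes run from -0.22 for Ppara to 0.40 for Cpt2.

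Taken by pair of groups, no member passed the threshold. In HD against WT 0 of 35 were called by edgeR or by limma-voom, where edgeR called 4.10% of all genes. At an unadjusted p under 0.05, 8 members were higher (22.9%, against 8.73% of all genes) and 0 were lower (against 10.1%), 30 of 35 changes were positive, and the median was 0.148 against 0.012. In 11 members all 3 HD libraries lay above all 3 WT libraries (31.4%, against 14.6% of all genes). In double mutants against cGAS-KO 0 of 35 were called by either tool (3.96% of all genes by edgeR); 7 were higher (20%, against 8.18%) and 2 lower (Acsl3 and Acsl6, against 9.23%) at an unadjusted p under 0.05, 25 changes were positive, and the median was 0.136 against 0.003. There too 11 members lay wholly higher, against 10.8% of all genes. By DESeq2's Wald test 3 members were called higher in HD against WT, and in double mutants against cGAS-KO 2 higher and 1 lower. Each is 8.57% of the members, near the 8.45% and 7.8% of all genes that this test called in either direction. In HD against WT, where all 3 were higher, the test called 3.09% of all genes higher. The comparisons share no libraries, but the fit gives both a common estimate of spread.

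The calls rested on single libraries to different degrees. Averaged over cGAS genotypes, Hadha and Eci2 were called in each of the 12 fits that left out a library, Hsd17b4 in 9, Decr1 in 8 and Etfdh, Acadm and Hadh in 5 each. The number of called members was 11 without WT replicate 1, and 2, 3, 4, 3, 4 and 2 without WT replicate 2, WT replicate 3, HD replicate 1, HD replicate 2, double-mutant replicate 2 and double-mutant replicate 3. The count over all genes moved with it: 16.5% were called without WT replicate 1, and 8.16% to 10.7% in the other 6 of these fits, against 13.2% with all libraries. Hsd17b4 lost its call without WT replicate 2, HD replicate 2 or double-mutant replicate 3 (adjusted p = 0.0533, 0.062 and 0.0595), and Decr1 without WT replicate 2, WT replicate 3, HD replicate 1 or double-mutant replicate 3 (0.0531, 0.0579, 0.0543 and 0.0506). Etfdh lost it without WT replicates 2 or 3, any HD library or double-mutant replicates 2 or 3, with adjusted p up to 0.0847. Acadm lost it without WT replicates 2 or 3, HD replicates 1 or 2 or any double-mutant library (up to 0.103), and Hadh without WT replicates 2 or 3, HD replicates 2 or 3, cGAS-KO replicate 1 or double-mutant replicates 2 or 3 (up to 0.0997). In the fits that lost a call the log2 changes stayed positive. They were 0.22 to 0.25 for Hsd17b4, 0.21 to 0.24 for Decr1 and for Etfdh, 0.18 to 0.20 for Acadm and 0.21 to 0.26 for Hadh.

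With WT replicate 1 and cGAS-KO replicate 3 both left out, the averaged comparison had 11 called members, where 21.2% of all genes were called and 9.85% were higher: Cpt1a, Cpt2, Acadl and Hadhb joined the 7, with averaged changes of 0.29 ± 0.06, 0.48 ± 0.10, 0.34 ± 0.05 and 0.27 ± 0.06 (adjusted p = 0.00215, 0.00452, 0.000246 and 0.00272). HD against WT then had 15 called members, all higher, where 16.5% of all genes were called and 6.80% were higher. Double mutants against cGAS-KO had 3 (8.57%), near the 8.31% of all genes called in either direction. In that comparison 3.64% of all genes were called higher. Both libraries had stood apart in the members themselves. WT replicate 1 was the highest WT library in 26 of 35 members, so leaving it out raises those changes against WT by construction. The WT libraries left had 519 and 620 CPM of the summed cortical neuron markers described below, against 57.2 to 106 in HD mice. HD against WT also had 7 called members without WT replicate 1 alone and 5 without cGAS-KO replicate 3 alone. There 7.02% and 8.81% of all genes were called in either direction, and 2.19% and 3.79% were called higher. Double mutants against cGAS-KO had 2 without WT replicate 1 and 1 without WT replicate 2. There 5.19% and 2.82% of all genes were called in either direction, and 1.83% and 1.02% were called higher.

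Markers of cortical projection neurons, which lie beside the dissected striatum, varied widely between libraries. The summed level of the 6 markers, none of them at 0 in all libraries, was 72.5, 519 and 620.0 CPM in WT, 57.2, 106 and 96.8 in HD mice, 246, 113 and 949 in cGAS-KO and 111, 243 and 143 in double mutants. In the averaged comparison 0 of the 6 were called, and their median log2 change was -1.84. WT replicate 1 was low among WT libraries in these markers and high in the members, and cGAS-KO replicate 3 was high in the markers and low in the members. Over the 6 libraries without the allele the order of the markers was fully inverse to that of the mitochondrial members. The markers' mean log2 CPM was 1.89, 5.04 and 5.35 in WT and 4.08, 2.60 and 5.97 in cGAS-KO. The mitochondrial members' mean was 4.56, 4.27 and 4.24 in WT and 4.37, 4.38 and 4.06 in cGAS-KO. Within the knock-in groups the order was not inverse: HD replicate 2 was the highest of its group in both, and double-mutant replicate 1 the lowest of its group in both. The markers' mean log2 CPM was 2.22, 2.63 and 1.61 in HD mice and 3.20, 4.27 and 3.49 in double mutants. The mitochondrial members' mean was 4.53, 4.63 and 4.55 in HD mice and 4.40, 4.50 and 4.53 in double mutants. The markers thus spanned 1.61 to 4.27 with the allele, against 1.89 to 5.97 without it. With or without the allele, 3 libraries a group cannot settle the order. With the mean level of the markers as a term, a fit chosen after seeing the data, 2 members stayed called in the averaged comparison, Hadha at 0.24 (adjusted p = 0.018) and Eci2 at 0.18 (0.0456), where 3.88% of all genes were called higher. The changes of Hsd17b4, Decr1, Etfdh, Acadm and Hadh in that fit were 0.21, 0.21, 0.19, 0.15 and 0.18 (adjusted p = 0.0609, 0.0736, 0.102, 0.118 and 0.124). A term for the 6 libraries high in Xist left 4 called members, Hadha, Eci2, Hsd17b4 and Decr1, where 4.43% of all genes were called higher. Those 6 libraries were 1 of 3 in WT (replicate 1), 2 of 3 in HD, 1 of 3 in cGAS-KO (replicate 3) and 2 of 3 in double mutants, so the 2 libraries that stood apart were the high-Xist libraries of their groups.

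Ependymal and choroid plexus markers, from the lining of the ventricle beside the striatum, also varied. The summed level of the 5 markers, none at 0 in all libraries, was 1818, 143 and 76.3 CPM in WT, 868, 1946 and 276 in HD mice, 818, 896 and 208 in cGAS-KO and 1125, 1177 and 97.8 in double mutants. WT replicate 1 and HD replicate 2, each the highest of its group in the mitochondrial members, were also the highest in these markers, and cGAS-KO replicate 3 was the lowest of its group in both, while double-mutant replicate 3 was the lowest in the markers and the highest in the members. In the averaged comparison 0 of the 5 were called and their median log2 change was 0.21. Their part in the members' rises was not tested.

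**Figure D3:**
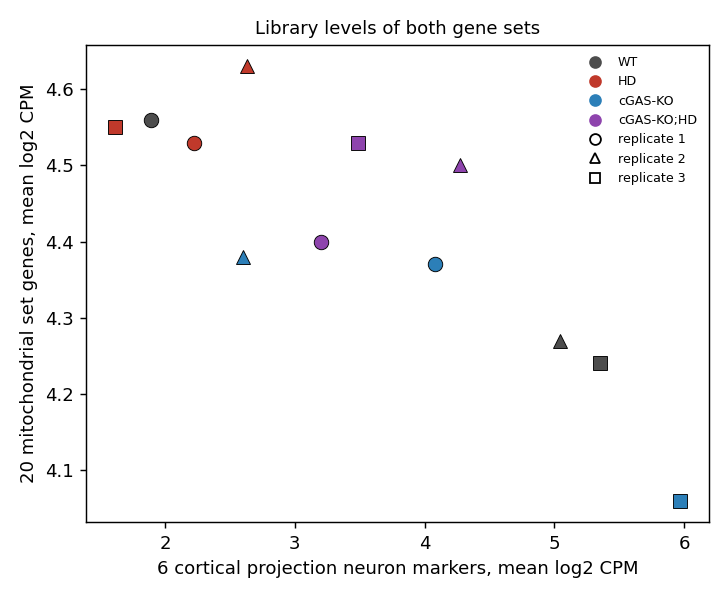
Mean log2 CPM of 20 mitochondrial members (y axis) against that of 6 cortical projection neuron markers (x axis) in the 12 libraries, coloured by group with a shape for each replicate. cGAS-KO replicate 3 has the highest marker level (5.97) and the lowest member level (4.06), and WT replicate 1 (1.89 and 4.56) lies with the HD libraries.

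Astrocytes are the cells of the brain best known for this pathway. Of their 10 markers 2 were called higher and 1 lower in the averaged comparison, with a median log2 change of -0.06, and the summed level was 4289 to 4581 CPM in WT, 3529 to 3548 in HD mice, 4104 to 4698 in cGAS-KO and 3595 to 3849 in double mutants. Of 8 oligodendrocyte markers 0 were called higher and 3 lower, with a median of 0.07, and of 6 microglial markers 1 was called higher and 0 lower, with a median of 0.03. No marker of these lists was at 0 in all libraries. The part of cell composition in the members' rises was not tested beyond the marker fit above.

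The organelles were compared by the mean log2 CPM of 20 mitochondrial and 7 peroxisomal members in each library. The mitochondrial mean was 4.56, 4.27 and 4.24 in WT, 4.53, 4.63 and 4.55 in HD mice, 4.37, 4.38 and 4.06 in cGAS-KO and 4.40, 4.50 and 4.53 in double mutants. The peroxisomal mean was 4.90, 4.77 and 4.81 in WT, 4.92, 4.96 and 4.98 in HD mice, 4.85, 4.84 and 4.66 in cGAS-KO and 4.83, 4.88 and 4.93 in double mutants. The mitochondrial means of HD overlapped WT through WT replicate 1 alone and the peroxisomal means did not overlap, while the double mutants lay above cGAS-KO in the mitochondrial set and overlapped it in the peroxisomal set.

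The difference between the sets was -0.47 ± 0.12 in WT, -0.39 ± 0.05 in HD mice, -0.51 ± 0.08 in cGAS-KO and -0.41 ± 0.02 in double mutants (SD, n = 3). HD overlapped WT through WT replicate 1 alone, and the double mutants, from -0.43 to -0.39, lay wholly above cGAS-KO, from -0.60 to -0.47. Within each pair the libraries with the allele thus had the higher mean difference, and no test was made of it. The averaged knock-in change had a median of 0.237 in the mitochondrial set, with 19 of 20 positive and 5 called, and of 0.069 in the peroxisomal set, with 6 of 7 positive and 2 called; the difference between the sets was not tested. The 8 members in neither set had a median of -0.052 with 0 called. Members of the mitochondrial set tracked each other over the 12 libraries with a median Pearson r of 0.61 over 190 pairs, those of the peroxisomal set with 0.30 over 21 pairs, and pairs across the sets with 0.43 over 140, values that share libraries and group differences.

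**Figure D4:**
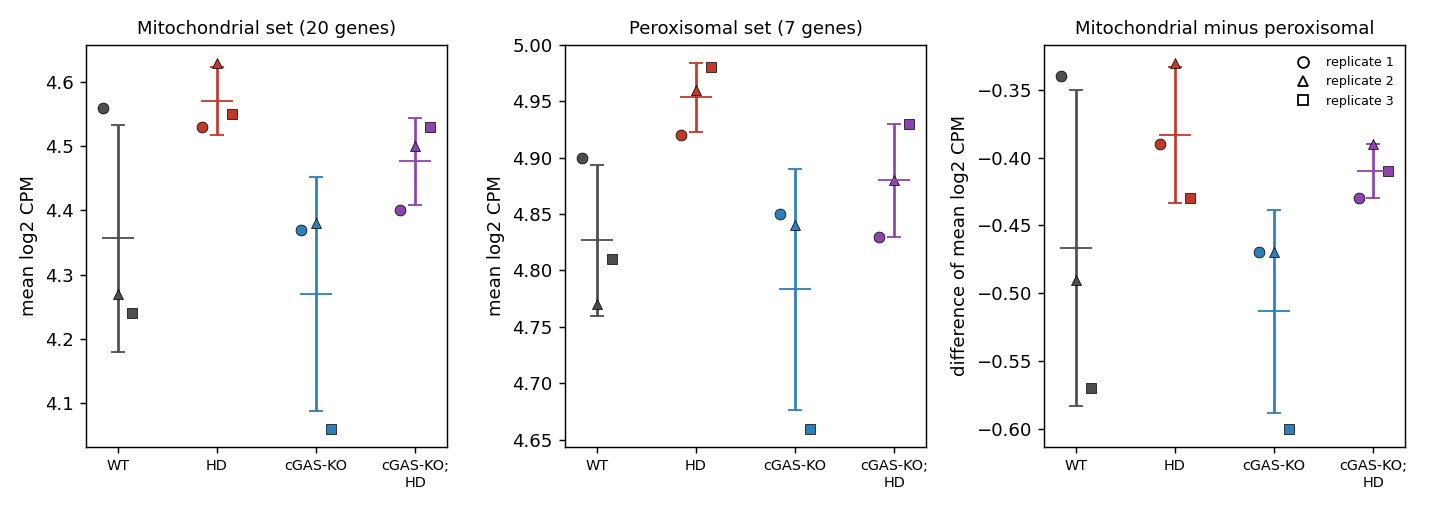
Mean log2 CPM of the mitochondrial set, of the peroxisomal set and their difference (y axes) in the 4 groups (x axis), with a point per library and bars of mean ± SD. The difference lies between -0.60 and -0.33 in all 12 libraries; the 3 double mutants lie above the 3 cGAS-KO libraries, and HD overlaps WT through WT replicate 1.

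Loss of cGAS moved no member past the threshold. In cGAS-KO against WT 0 of 35 were called (0.00% of all genes), with 0 members at an unadjusted p under 0.05, a median of -0.03 and changes from -0.30 to 0.15. The smallest p belonged to Hadh (-0.20 ± 0.10), Acadm (0.14 ± 0.08) and Cpt1a (-0.20 ± 0.13), each at an edgeR adjusted p of 0.919. The value of Cpt1a rested on WT replicate 1: without that library it was 0.02 ± 0.09.

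In double mutants against HD 0 of 35 were called, where 1 gene (0.00469%) was called in all. Acsl6 was the only member at an unadjusted p under 0.05, at -0.19 ± 0.07 (edgeR adjusted p = 0.757), with all 3 double mutants below all 3 HD libraries. Acaa1a at -0.34 ± 0.18 and Echs1 at -0.29 ± 0.17 followed, both with overlapping libraries. The median of the 35 was -0.052, against 0.006 for all genes.

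The interaction asks whether the knock-in effect differs between mice with and without cGAS. It called 0 of 35 members and 1 gene of all (0.00469%). Acsl6 again had the smallest p of the members, with -0.22 ± 0.10 (unadjusted p = 0.0453 by edgeR, adjusted p = 1.00), followed by Cpt1c at 0.17 ± 0.09 and Acsl3 at -0.15 ± 0.09. For the 7 genes that rose with the knock-in allele the interaction lay between -0.13 and 0.14 on the log2 scale, with standard errors of 0.11 to 0.14. Averaged over knock-in genotypes, loss of cGAS called 0 of 35 members and 0.00% of all genes, with 0 members at an unadjusted p under 0.05, and the smallest p were those of Acaa1a at -0.24 ± 0.13, Hadh at -0.12 ± 0.07 and Acox3 at -0.09 ± 0.05. In these cGAS comparisons DESeq2's Wald test and limma-voom called 0 members as well.

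**Figure D5:**
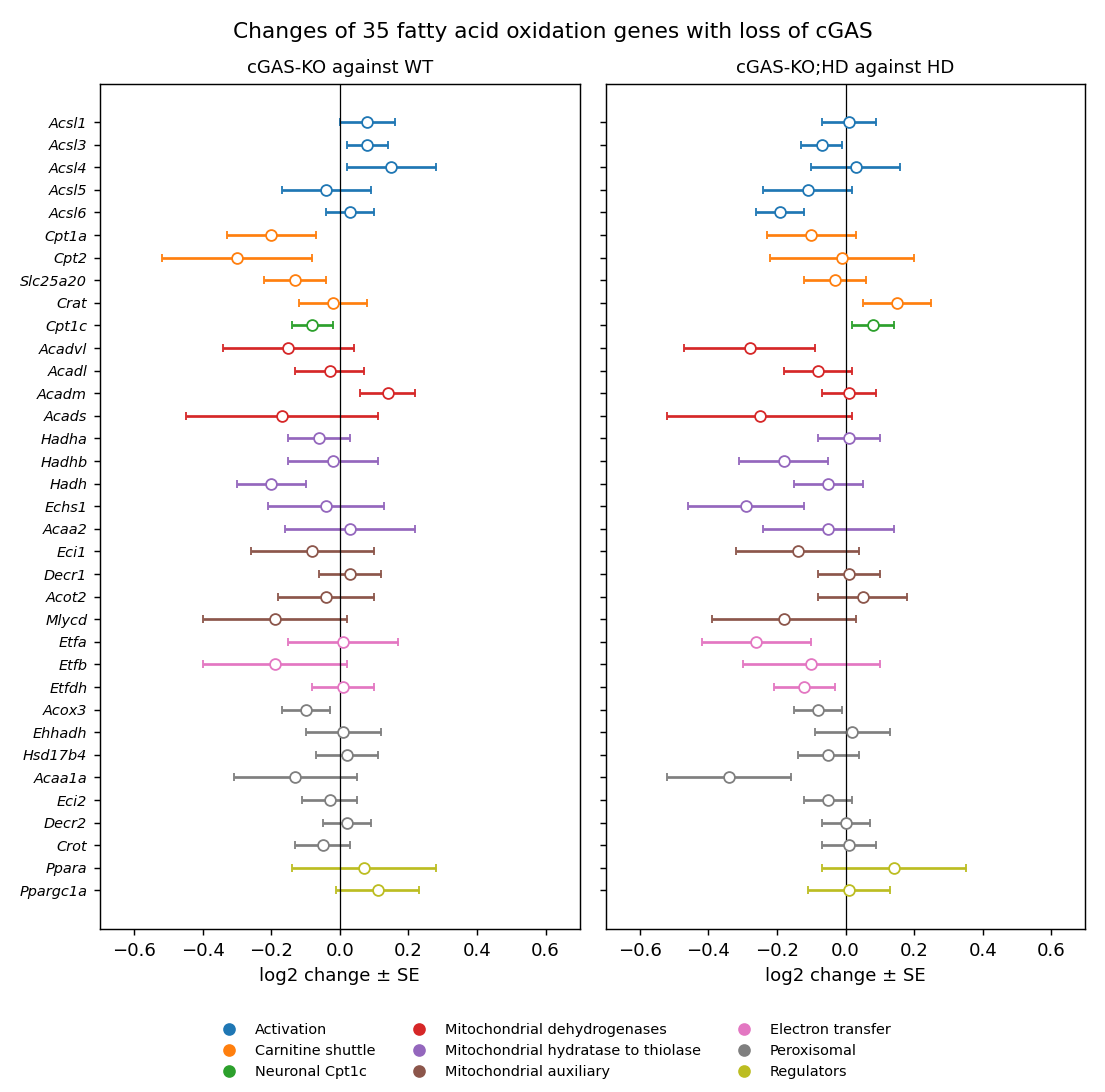
Log2 change ± SE (x axis) of the 35 members (rows, coloured by role) in cGAS-KO against WT and in double mutants against HD. No point is called; changes run from -0.30 to 0.15 on the left and from -0.34 to 0.15 on the right.

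Other genes of the pathway were counted from a fixed list of 93, of which 91 were tested. In the averaged knock-in comparison 8 rose (8.79%, against 5.59% of all genes) and 5 fell, with a median of 0.061; the 13 called genes are close to the share of 13.2% called among all genes. The list also holds genes of uptake, ketone bodies, regulation, peroxisome assembly and fatty acid synthesis. Of its 29 tested beta-oxidation genes, 4 rose (13.8%) and 1 fell, with a median of 0.127. Over the whole list, the 4 genes with the smallest p were Acot1, Fads1, Acaa1b and Lpl. Acot1, a cytosolic thioesterase close in sequence to Acot2, was at 7.89, 6.54 and 6.57 CPM in WT, 10.8, 12.9 and 12.7 in HD mice, 7.40, 8.86 and 5.58 in cGAS-KO and 10.2, 11.1 and 11.9 in double mutants. Its libraries with the allele all lay above those without, with a change of 0.70 ± 0.11 (adjusted p = 0.00145), and it was the gene of the list called in HD against WT (0.79 ± 0.16, adjusted p = 0.0143).

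Fads1, a desaturase of polyunsaturated fatty acid synthesis, fell by 0.29 ± 0.05 on the log2 scale (adjusted p = 0.00239), with means of 246 ± 6.49, 206 ± 5.46, 251 ± 12.3 and 201 ± 13.9 CPM in WT, HD, cGAS-KO and double mutants. Acaa1b, the near copy of Acaa1a, was at 0.437 ± 0.0522, 0.165 ± 0.0614, 0.322 ± 0.0676 and 0.065 ± 0.0331 CPM and fell by 1.83 ± 0.32 (adjusted p = 0.00268), a change that rests on few counts. Lpl, the lipase that frees fatty acids from lipoproteins, had means of 43.4 ± 2.46, 27.1 ± 7.67, 48.8 ± 8.11 and 29.2 ± 2.35 CPM and fell by 0.71 ± 0.12 (adjusted p = 0.00297).

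In double mutants against cGAS-KO 1 gene of the list rose and 3 fell, close to the share of 3.96% called among all genes. Phyh, which opens peroxisomal alpha-oxidation of phytanic acid, had means of 85.9 ± 10.8, 101 ± 2.26, 81.8 ± 4.65 and 107 ± 5.04 CPM in WT, HD, cGAS-KO and double mutants and rose by 0.38 ± 0.09 (adjusted p = 0.0263); Acaa1b, Fads1 and Lpl fell by 2.27 ± 0.48, 0.32 ± 0.07 and 0.74 ± 0.18. Of the 17 peroxisome assembly genes 0 rose and 1 fell in the averaged comparison, of 5 ketone body genes 0 were called, and of 15 further regulators 1 rose and 1 fell. In the cGAS comparisons and the interaction 0 of 91 were called by edgeR, with the smallest p in each at Pex11g, a peroxisome division gene (-0.74 ± 0.33 in cGAS-KO against WT), Esrrb, a nuclear receptor (-0.71 ± 0.25 in double mutants against HD), Abcd2, a peroxisomal transporter of very long chains (interaction -0.46 ± 0.16), and Acaa1b (-0.88 ± 0.32, averaged).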

How the data were processed

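Per the labels' protocols, poly(A) RNA of striatal tissue from 12 mice went into directional libraries. The authors deposited counts, whole numbers for each Ensembl gene; the aligner, counter, build and annotation behind them were not given in the sources used here. Symbols came from GENCODE M21 (GRCm38) for 55141 of 55487 genes (99.4%), and the remaining rows took at most 0.0611% of a library. Sample titles gave the groups and replicate numbers.

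The counts were fitted with edgeR 4.0.16 (R 4.3.3): filterByExpr (minimum count 10, minimum total 15; 21309 genes kept), TMM scaling and the robust quasi-likelihood test with 1 mean per group over 12 libraries (8 residual degrees of freedom, common dispersion 0.0326). P-values were Benjamini-Hochberg adjusted over all genes tested, in 7 comparisons. Errors of log2 changes are standard errors of the fit. CPM use TMM-scaled library sizes, and log2 CPM a prior count of 2. Exon lengths are the union of GENCODE exons. P-values rest on the spread between mice within groups, with 3 mice a group. That spread is estimated over all 12 libraries with information shared between genes, so each comparison also draws on the groups it does not compare.

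The members, lists and tests were chosen with earlier results of these data known. Library values were printed by rule for called members, the 3 members with the smallest p in each comparison and the member of each role with the highest level per length; of other pathway genes, up to 4 called ones were named by p, or the 1 with the smallest p. The labels do not say whether the replicate number pairs mice, and mice were treated as unpaired. Same-numbered libraries had correlations of their deviations from -0.231 to 0.203, over 0.1 in 2 of 18 pairs. Libraries of other numbers had correlations from -0.278 to 0.299. Alternatives were DESeq2 1.42.0 size factors and Wald test, limma 3.58.1 voom, other filters and thresholds, a fit on the compared groups alone, a replicate block, a term for high Xist, and each library left out. WT replicate 1 and cGAS-KO replicate 3, which stood apart in the members, were also left out together. The cortical marker term and the AGGTCA search were added after seeing the data. The scripts were tested on simulated counts. There HD against WT recovered 1 of 50 planted 1.25-fold changes and 20 of 50 planted 1.5-fold changes. A count of 0 in a pair of groups therefore does not show that changes as small as the members' rises are absent.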

Additional observations from a re-analysis of the deposited data

How the results depend on the processing

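The 7 calls of the averaged knock-in comparison numbered 4 with a term for libraries high in Xist, 2 with the cortical marker term (added after seeing the data), 11 without WT replicate 1 and cGAS-KO replicate 3, and 2 to 11 when each library was left out in turn; the other tools, filters and thresholds gave 6 to 10. With the replicate number as a replicate block 6 were called, Hadh being lost (adjusted p = 0.0541), and the block moved no other count of members. Without the low-count filter Acadm was lost (adjusted p = 0.0698). The count of 0 in HD against WT became 3 with DESeq2's Wald test, 4 at an adjusted p under 0.1, 15 without both libraries and 0 to 7 over single libraries left out. In double mutants against cGAS-KO it became 1 without the low-count filter, 3 with the Wald test, 2 at 0.1, 3 without both libraries, 1 with the cortical marker term and 0 to 2 over single libraries. In the cGAS comparisons and the interaction 0 members were called in every alternative run. Cpt1a in cGAS-KO against WT, at -0.20, turned to 0.02 without WT replicate 1 and 0.06 without both libraries, in a range of -0.30 to 0.02 over single libraries. With members of at least 5 CPM alone the organelle difference was -0.25 in WT, -0.16 in HD mice, -0.29 in cGAS-KO and -0.18 in double mutants, in the same order as before. Of the other pathway genes, 1 to 21 were called in HD against WT over the settings with all replicates or without both libraries. The rarest members, Etfb and Ppara, had standard errors of 0.14 and 0.15 in the averaged knock-in comparison, against 0.05 for Eci2.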

Other observations

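The genes whose log2 CPM ran most like Hadha over the 12 libraries were BC034090, Gm16551 and Zscan29 (Pearson r = 0.967, 0.962 and 0.96), and those most like Eci2 were Prkcq, Brip1os and S100b, an astrocyte marker (0.981, 0.977 and 0.976). These are the highest of all tested genes, so high values are partly a matter of choice among many, and they carry no p. S100b is 1 of the 10 astrocyte markers. Of those, 2 were called higher and 1 lower in the averaged knock-in comparison, with a median log2 change of -0.06. Among the members, Hadha ran closest to Hsd17b4 (0.935) and Eci2 (0.916), and lowest with Acsl3 (-0.635), Acsl5 (-0.566) and Crat (-0.442).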
